A study of Mus musculus with 4 samples.

Results

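The Notch pathway genes and Atoh1 described here are 10 mouse genes. They comprise the receptors Notch1 and Notch2, the ligands Jag1, Jag2, Dll1 and Dll4, the DNA-binding effector Rbpj, the target genes Hes1 and Hey1, and Atoh1, the factor that starts secretory differentiation. They were chosen by name, and each was read with all Fos summits inside its annotated span or within 50 kb of it, out of 21631 protein-coding genes of the chromosomes examined, which left out Y. Together the 10 windows held 273 of the 178981 summits of the list, and no summit fell in 2 of the windows.

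The study profiled Fos, a subunit of the AP-1 transcription factor, in scraped colonic epithelium of wild-type mice by CUT&Tag, in which an antibody directs the transposase Tn5 to cut the DNA around its target. Of the 4 libraries, 2 came from mice recovered from colitis and 2 from healthy controls. The recovered mice had drunk water with 1 to 1.5% dextran sodium sulfate (DSS), which injures the colonic lining, for 3 cycles (7 days on, 10 days off). Their tissue was taken 22 days after DSS ended for the last time. Preparation of all 4 libraries included 4 mM EDTA, 10% serum and a 30 min incubation. A single peak list for the whole series was analysed, without values per library, so recovered and healthy colon could not be compared, no value has a replicate error and depth per library is unknown.

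Notch signalling works between touching cells. A Jagged or Delta ligand on one cell binds a Notch receptor on its neighbour, the receptor is cut, and its freed intracellular part joins Rbpj on DNA to switch on Hes and Hey genes. In the intestinal crypt, Hes1 represses Atoh1, so that cells receiving the signal become absorptive and cells escaping it turn on Atoh1 and become goblet, enteroendocrine or other secretory cells that display Delta ligands.

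A summit is a local high point of the signal in a called region, which can hold several. Its fold is the authors' enrichment over a uniform background. From the folds the number of overlapping fragments at each summit (the pileup) was read, with a background of 3.16 fragments per base. The median summit of the whole list had 27 fragments and a fold of 6.735, and summits with a fold of at least 38.0, the strongest 10%, are called strong below. Intervals on pileups are exact 95% Poisson intervals, for counting error only.

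The colonic epithelium label was checked at marker genes. All 13 epithelial markers had a summit within 1 kb of the start of transcription (or of either gene boundary where the gene table used gives no start), against 0 of 9 leukocyte, 2 of 8 endothelial, 1 of 6 fibroblast and 1 of 5 smooth muscle markers. Over all protein-coding genes the share was 62.0%. The part of endothelial cells in the signal at Dll4 and Hey1, which also act in blood vessels, was not tested.

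Sequences at the starts of 6 of the genes are shown first: those in which a Fos summit fell and which hold a match to a motif of AP-1, Rbpj or Hes proteins. Each runs from 250 bases before to 50 bases after a RefSeq start (GRCm38.p6), 5′ to 3′ on the gene's strand. Capitals mark matches to an AP-1 motif (TGANTCA), to the core that Rbpj binds (TGGGAA) and to the N-box that Hes proteins bind (CACNAG), searched on both strands.
Rbpj, second start, chr5:53590236-53590535, plus strand: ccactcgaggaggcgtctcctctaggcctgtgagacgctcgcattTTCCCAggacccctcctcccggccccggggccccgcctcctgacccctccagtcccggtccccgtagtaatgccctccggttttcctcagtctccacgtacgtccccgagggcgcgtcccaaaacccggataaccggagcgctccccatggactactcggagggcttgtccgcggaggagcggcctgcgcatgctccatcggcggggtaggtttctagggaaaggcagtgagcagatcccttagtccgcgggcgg
Dll1, outer start, chr17:15376883-15377182, minus strand: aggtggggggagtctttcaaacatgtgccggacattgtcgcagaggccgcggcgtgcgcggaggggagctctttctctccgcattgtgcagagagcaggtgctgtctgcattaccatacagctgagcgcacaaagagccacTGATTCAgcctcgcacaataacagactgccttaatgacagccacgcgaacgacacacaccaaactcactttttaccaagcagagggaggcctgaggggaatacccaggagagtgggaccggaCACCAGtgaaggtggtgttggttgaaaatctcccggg
Dll4, chr2:119325534-119325833, plus strand: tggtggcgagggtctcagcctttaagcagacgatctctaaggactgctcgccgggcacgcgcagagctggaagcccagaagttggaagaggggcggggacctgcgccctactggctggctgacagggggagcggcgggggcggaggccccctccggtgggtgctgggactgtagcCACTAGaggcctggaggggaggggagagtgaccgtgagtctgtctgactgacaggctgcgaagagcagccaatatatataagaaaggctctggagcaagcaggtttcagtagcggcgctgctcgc
Notch1, chr2:26503773-26504072, minus strand: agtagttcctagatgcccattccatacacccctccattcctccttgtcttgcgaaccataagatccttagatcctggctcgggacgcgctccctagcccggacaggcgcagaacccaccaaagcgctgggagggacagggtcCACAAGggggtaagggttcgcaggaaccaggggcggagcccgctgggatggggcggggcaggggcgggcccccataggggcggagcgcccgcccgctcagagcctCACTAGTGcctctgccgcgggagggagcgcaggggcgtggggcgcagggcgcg
Notch2, chr3:98013288-98013587, plus strand: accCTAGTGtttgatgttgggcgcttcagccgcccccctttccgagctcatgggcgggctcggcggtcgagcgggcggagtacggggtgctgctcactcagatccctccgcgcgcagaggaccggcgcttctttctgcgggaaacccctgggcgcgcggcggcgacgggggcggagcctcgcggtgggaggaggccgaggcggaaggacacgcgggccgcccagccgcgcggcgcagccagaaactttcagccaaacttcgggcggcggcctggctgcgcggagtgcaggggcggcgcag
Atoh1, chr6:64728875-64729174, plus strand: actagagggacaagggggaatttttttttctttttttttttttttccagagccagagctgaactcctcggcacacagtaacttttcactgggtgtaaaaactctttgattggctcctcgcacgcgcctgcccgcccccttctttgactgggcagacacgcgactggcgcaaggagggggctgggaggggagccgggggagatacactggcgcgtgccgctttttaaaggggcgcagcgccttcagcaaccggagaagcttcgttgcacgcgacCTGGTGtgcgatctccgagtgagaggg

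The AP-1 motif occurred once, in the Dll1 sequence from base 142 to base 148, and in none of the other 9 start sequences of the 8 genes that had one (Rbpj and Dll1 have more than 1 start). It occurred in 7.81% of 32851 promoters of 300 bases. The Rbpj core occurred only at Rbpj, at both of its starts, and in 25.6% of promoters. The N-box occurred at Notch1, Notch2, Dll1, Dll4 and Atoh1, and in 42.5% of promoters. In Notch1 a pair of N-box matches on opposite strands overlap each other at the start itself. The longer Rbpj core GTGGGAA, the cyclic AMP response element TGACGTCA and the TATA box TATAAA matched none of the 10 sequences, against 6.38%, 1.79% and 13.6% of promoters. E-boxes (CANNTG, in 72.3% of promoters) occurred at Dll1, Rbpj and Jag1. Inside the sequences shown, the summit lay at base 162 for Rbpj, base 31 for Dll1, base 244 for Dll4, base 111 for Notch1, base 239 for Notch2 and base 189 for Atoh1. These matches describe the letters only.

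Every gene of the set had a Fos summit within 1 kb of a listed start (of a boundary for Hes1 and Hey1), against 62.0% of all protein-coding genes, and the genes differed widely in how much signal surrounded them. Hes1 and Notch1 had the most summits in their windows, 51 and 50. Jag2 had 41, Dll4 30, Atoh1 24, Dll1 21, Jag1 19 and Notch2 18. Rbpj and Hey1 had the fewest, 10 and 9. The median of the 10 was 22.5, against 16 over all protein-coding genes (quartiles 5 and 29), and 63.35% of all genes had fewer than 22.5. A summit was present in the window of 86.3% of all genes, so its presence alone sets none of the 10 apart.

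**Figure D1:**
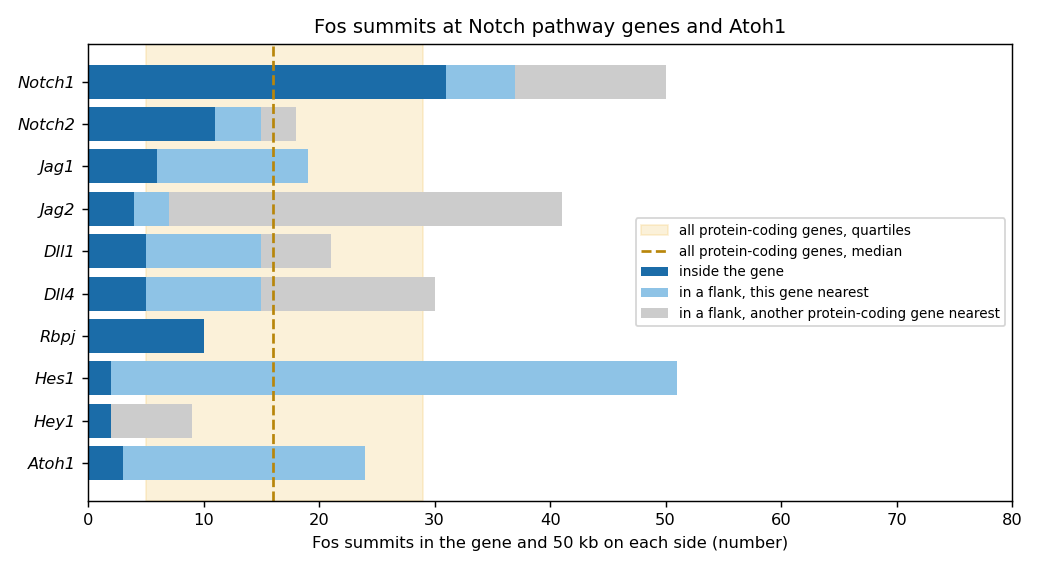
Number of Fos summits in each gene and 50 kb on each side (bars, no replicates), split by position and by nearest protein-coding gene. The shaded band and dashed line give the quartiles and median of all protein-coding genes (5, 16 and 29). Hes1, Notch1, Jag2 and Dll4 lie beyond the band with 51, 50, 41 and 30 summits, and most of those at Jag2 lie nearer another gene.

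The summits were not stronger than the list as a whole. Their median fold was 6.25, and 20 of 273 (7.33%) were strong, against 10% of all summits by definition. Of those 20, Hes1 held 9, Notch1 3, Dll4 and Rbpj 2 each, and Jag1, Jag2, Dll1 and Atoh1 1 each. At least 1 strong summit lay in the windows of 8 of the 10 genes, against 60.4% of all protein-coding genes, and Notch2 and Hey1 had none. For 15 of the 20 strong summits the member was the nearest protein-coding gene, a share near that of all 273 summits (195, or 71.4%).

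At the starts themselves the order was Rbpj, Jag1, Hes1, Dll4, Hey1, Atoh1, Notch1, Notch2, Dll1 and Jag2. The strongest summit within 1 kb had a pileup of 431 fragments (391.3 to 473.7) at Rbpj, then 199 (172.3 to 228.7) at Jag1 and 192 (165.8 to 221.2) at Hes1. Dll4 had 140 (117.8 to 165.2), Hey1 117 (96.8 to 140.2), Atoh1 84 (67.0 to 104.0) and Notch1 73 (57.2 to 91.8). Notch2 had 62 (47.5 to 79.5), Dll1 50 (37.1 to 65.9) and Jag2 27 (17.8 to 39.3). Each pair of neighbours in this order had overlapping intervals except Rbpj with Jag1 and Hes1 with Dll4. A strong summit lay within 1 kb of the start or boundary at 3 of the 10 genes, Rbpj, Jag1 and Hes1, against 23.8% of all protein-coding genes. The order and this count hold for a distance of 1 kb and were not recomputed at others. Just beyond it, Atoh1 had a strong summit of 206 fragments 1069 bp upstream, and Hes1 one of 257 fragments 1119 bp below the gene.

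**Figure D2:**
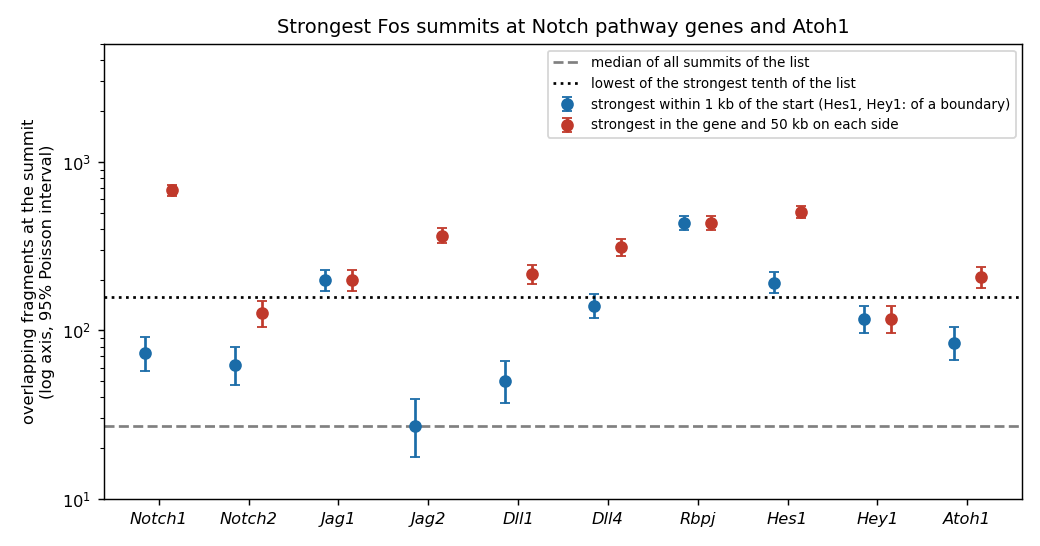
Pileup of the strongest summit within 1 kb of the start (blue; of a boundary for Hes1 and Hey1) and in the whole window (red) for each gene, on a log axis with exact 95% Poisson intervals. The lines mark the median of all summits (27 fragments) and the lowest pileup among the strongest 10% (157). At Rbpj, Jag1 and Hey1 both points are the same summit, and at Notch1 the window maximum of 676 stands far above the 73 at the start.

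Notch1, the main Notch receptor of the crypt together with Notch2, lies on the minus strand of chromosome 2 from 26457902 to 26503822. Its window held 50 summits in 23 regions, of which 31 were inside the gene, 8 upstream and 11 downstream. More of them lay inside the span than for any other gene of the set. The start was covered by 1 region of 3961 bp with 7 summits. The summit 140 bp upstream of the start had a fold of 17.8, and the strongest of that region, 2756 bp inside the gene, had 36.1. A second cluster of 5 summits lay about midway through the gene, where the summit 21528 bp from the start had a fold of 45.2 and 187 fragments (161.2 to 215.8). That is the strongest Fos summit inside Notch1.

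The largest signal in the Notch1 window was not in Notch1. It lay 12408 bp beyond the 3′ end, at position 26445494 inside the neighbouring gene Sec16a, a scaffold of export sites of the endoplasmic reticulum, with a fold of 162.8 and 676 fragments (626.0 to 728.9). The pileup there was the highest of all 273 summits, and its interval did not overlap that of any summit inside Notch1. Assignment to a gene rests on distance alone, and 37 of the 50 summits had Notch1 as their nearest protein-coding gene.

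Notch2, on chromosome 3 from 98013538 to 98150367, is 136830 bp long but had only 18 summits, or 7.60 per 100 kb of window against 34.3 for Notch1 and a median of 11.1 over all genes. Its start carried a fold of 15.15 at 12 bp upstream, in a region of 1272 bp with 2 summits. Inside the gene, the 2 highest folds were 21.65 at 17736 bp and 14.4 at 30516 bp from the start, and the remaining 9 summits there were between 3.37 and 6.735. Its strongest summit lay 19326 bp upstream, where no protein-coding gene was nearer, with a fold of 30.55 and 126 fragments (105.0 to 150.0). The start signals of both receptors had overlapping intervals, and Notch1 had the larger number of summits.

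Among the ligands, Jag1 had its signal at the start and Jag2 did not. Jag1, on the minus strand of chromosome 2 from 137081451 to 137116520, had 19 summits, all with Jag1 as nearest protein-coding gene. A region of 1854 bp over its start held 5 summits. Their folds were 6.49 at 255 bp inside the gene, then 15.6, 48.1, 36.1 and 10.6 at 5, 373, 663 and 1125 bp upstream. The maximum lay upstream of the start, at 199 fragments, and was also the highest of the window. A second region just inside the gene reached 25.5 at 1455 bp from the start. A further group of 8 summits lay between 30663 and 49468 bp upstream, with folds of up to 16.1, and none lay downstream of the gene.

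Jag2, on the minus strand of chromosome 12 from 112907803 to 112929812, had 41 summits, but it was the nearest protein-coding gene for 7 of them (17.1%). Within 1 kb of its start the folds were 6.735, 6.25 and 3.37, the lowest start signal of the 10 genes, and the highest of these was 27 fragments (17.8 to 39.3), equal to the median summit of the list. Both summits deeper in the gene had folds of 3.13 and 2.89. The strongest summit of the window, with a fold of 87.8 and 364 fragments (327.6 to 403.4), lay 23226 bp upstream of the start and 2910 bp from Brf1, a subunit of an RNA polymerase III initiation factor. Of the 7 summits nearest to Jag2, the highest had a fold of 20.0 and lay 9743 bp downstream of the gene.

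The Delta ligands also differed from each other. Dll1, the ligand of secretory progenitors, lies on the minus strand of chromosome 17 from 15367354 to 15376932 and has 2 listed starts, both inside a region of 2536 bp with 6 summits. Their folds were low and even, at 4.81, 11.55, 12.3, 5.77, 11.3 and 7.70 in order along the chromosome, with the last 220 bp upstream of the outer start, in the sequence printed above that holds the AP-1 match. Outside this region, a summit 3952 bp upstream had a fold of 18.3 and one 10529 bp beyond the 3′ end had 31.5. The highest fold, 51.96 with 215 fragments (187.2 to 245.7), lay 12728 bp upstream and was nearer to Fam120b.

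Dll4, the ligand that in mouse acts with Dll1 to maintain intestinal stem cells, lies on the plus strand of chromosome 2 from 119325784 to 119335666. It had 30 summits, 15 of them nearest to it. A region of 1830 bp crossed its start and held 3 summits, with folds of 20.2, 33.9 and 20.45 at 885, 532 and 7 bp upstream of the start. The strongest summit was inside the gene, 3595 bp from the start, as the sole summit of a region of 873 bp. It had a fold of 75.05 and 311 fragments (277.4 to 347.6). This pileup was more than that of any of the 3 at the start, with no overlap of intervals. A pair of summits 7425 and 7135 bp upstream had folds of 16.6 and 27.2, and the other strong summit, with a fold of 61.1 at 37020 bp upstream, lay at Vps18.

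**Figure D3:**
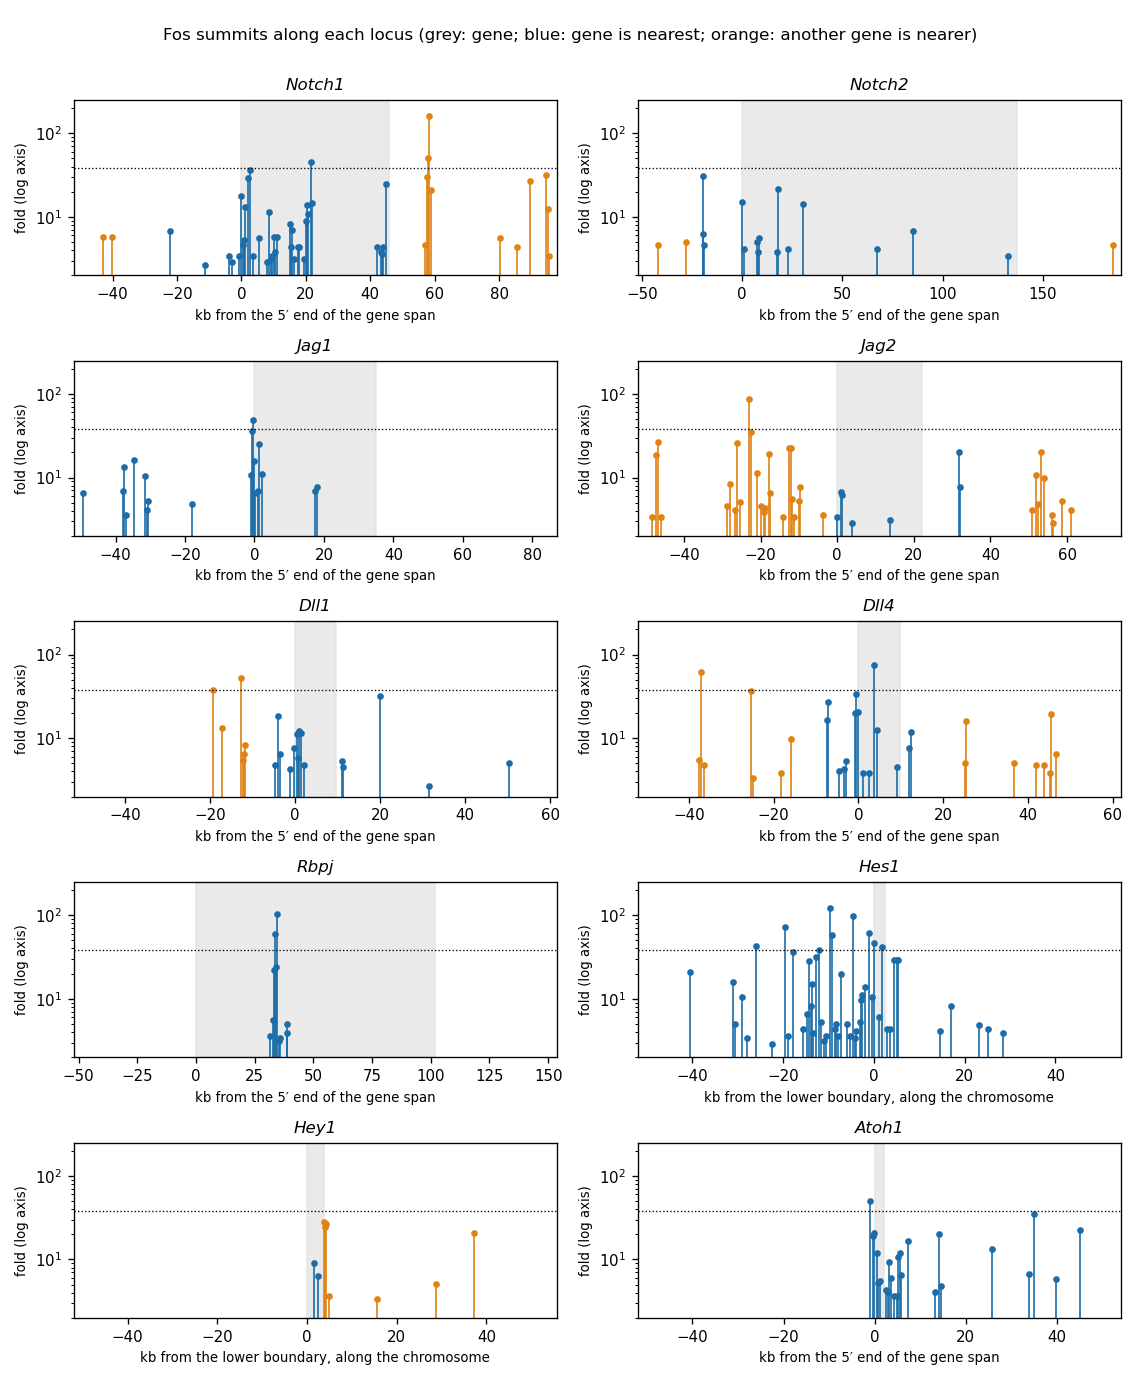
Fos summits along each locus. The horizontal axis gives kb from the 5′ end of the gene span in the direction of transcription (for Hes1 and Hey1, kb from the lower boundary along the chromosome), the vertical axis the authors' fold on a log scale, grey the gene and the dotted line a fold of 38.0. Blue summits have the named gene as nearest protein-coding gene and orange ones another. Summits of Hes1 lie in a band on its lower side, those of Atoh1 extend downstream, and most of those of Rbpj form 1 cluster at its 2 listed starts, inside the span.

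Rbpj, the protein that ties all Notch receptors to DNA, had few summits but the strongest start. The gene, on the plus strand of chromosome 5 from 53555779 to 53657445, had 10 summits in 3 regions, all inside its span, and none in either flank of 50 kb. A region of 3471 bp from 53588461 to 53591931 held 7 of them, and the remaining 3 had folds of at most 5.05. Within that region the fold reached 60.1 at 946 bp upstream of the first listed start, with 249 fragments (219.0 to 281.9). It peaked at 103.9, with 431 fragments, 51 bp downstream of that start. This fold was higher than the highest start fold of 91.17% of the protein-coding genes with a summit there, while 36.7% of all genes had fewer summits in the window. The starts lie well inside the span that the gene table gives, so counted at span boundaries Rbpj had no summit within 1 kb. The Rbpj core in the sequence above lies at bases 46 to 51, which is 205 bases before the second start and 65 before the first. The sequence at the first start holds the same match and a further one, 149 bases before that start.

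Hes1, the repressor that Notch induces in crypt cells, was surrounded by more strong Fos summits than any of the other 9 genes. It lies on chromosome 16 from 30065357 to 30067796, spans 2440 bp and is the sole protein-coding gene in its window. Its 51 summits compare with a median of 4 over the 2248 genes that are likewise alone in their windows, 97.0% of which had fewer. Per 100 kb of window it had 49.8, above 97.5% of all genes, and its regions covered 25.02% of the window. Strong summits numbered 9, and 96.1% of all genes had fewer than that.

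The signal at Hes1 lay to one side. On the side of lower coordinates there were 39 summits, against 10 on the other side and 2 inside the gene. The strongest, at position 30055709, lay 9648 bp below the gene with a fold of 121.5 and 504 fragments (461.0 to 550.0), and the second, 4696 bp below it, had 99.1 and 411 fragments (372.2 to 452.7). Further strong summits on that side had folds of 71.4 at 19533 bp, 62.1 at 1119 bp, 57.5 at 9120 bp, 46.4 at 59 bp, 43.1 at 25885 bp and 38.2 at 12090 bp below the gene. The remaining strong one, at 42.1 with 174 fragments (149.1 to 201.9), was inside it.

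A single region of 5427 bp with 9 summits ran from 30062004 to 30067430 across the lower boundary and most of the gene, and was the widest region in any of the 10 windows. On the upper side the 3 highest folds were 29.35, 28.9 and 28.9, in a group between 2055 and 2861 bp away, and beyond it they were at most 8.18. The strongest summit at a boundary, 192 fragments, thus had fewer than the 2 strongest farther off, with no overlap of intervals.

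Hey1, a related repressor with known roles in vessels, lies on chromosome 3 from 8663359 to 8667038 and had 9 summits in 6 regions, the fewest of the set. Near its upper boundary, 202, 363 and 572 bp above it, 3 summits of 1 region of 1996 bp had folds of 28.4, 24.3 and 26.5. Their pileups of 117, 100 and 109 fragments had overlapping intervals. They fell inside LOC115489673, a predicted gene that overlaps the upper boundary of Hey1 and was therefore counted as nearest. Both summits inside Hey1 had folds of 9.14 and 6.25, and none lay within 50 kb below it. The other summit above 20 lay 33557 bp above Hey1 and reached 20.7.

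Atoh1, the factor on which goblet and enteroendocrine cells of the intestine depend, had intermediate signal at its start and a long run of summits downstream. It lies on the plus strand of chromosome 6 from 64729125 to 64731245 and had 24 summits in 13 regions, all nearest to it, of which 3 were upstream, 3 inside and 18 downstream. A region of 2971 bp over the gene held 6 summits. Their folds were 49.8, 19.2 and 20.45 at 1069, 312 and 62 bp upstream and 11.8, 5.29 and 5.53 inside the gene. The first, with 206 fragments (178.8 to 236.1), was the highest of the window and stood above the 84 fragments (67.0 to 104.0) nearest the start.

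Downstream of Atoh1, where in mouse an enhancer that Atoh1 itself binds is known, summits were frequent, and close and distant ones had overlapping ranges of fold. From 319 to 5280 bp beyond the gene there were 10 summits with folds of 3.61 to 16.6. Among these, 4 in a region of 1373 bp peaked at 12.0, with 49 fragments (36.3 to 64.8), 3448 bp beyond the gene. Whether any of them lies on that enhancer was not tested. Farther out, 8 summits had folds of 4.09 to 34.6. The 4 higher ones had 20.2 at 12030 bp, 13.2 at 23587 bp, 34.6 at 32935 bp and 22.4 at 43038 bp, and the other 4 had at most 6.735. The summit at 32935 bp, with 143 fragments (120.5 to 168.5), was the second highest of the window and the sole summit of its region.

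Set side by side, Hes1 and Atoh1, the repressor and its target, both lacked any protein-coding gene nearer to their summits. Hes1 had 51 summits and 9 strong ones, and Atoh1 24 and 1. Their strongest summits, 504 and 206 fragments, had intervals that did not overlap. Among genes with 2 protein-coding genes in the window, itself included, as for Atoh1, the median was 10 summits and 76.9% had fewer than 24.

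The rest of the pathway was read from a list of 49 further genes. Of these 45 (91.8%) had a summit within 1 kb of a listed start, or of a boundary where none is listed, against 62.0% of all protein-coding genes, and 15 had a strong one there (23.8% of all genes had). Their windows held a median of 26 summits, with a range of 7 to 108. Hes and Hey factors with Nrarp had a start summit in 7 of 8 genes, with a median start fold of 46.4 (range 3.61 to 175.6). All 9 proteases that process the receptor had one, with a median of 45.9, as did all 12 nuclear cofactors, with 19.25, and all 5 glycosylation enzymes, with 22.1. Ubiquitin ligases and Numb proteins had one in 10 of 12, with 13.1, and the remaining receptors and ligands in 2 of 3, with 10.5. The medians cover genes with a start summit. For the 45 such genes of the whole list the median start fold was 22.4, against 27.9 over all protein-coding genes with one.

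Among the pathway genes with the most summits were Maml3 with 108, Hes2 with 65, Nrarp with 57, and Maml1 and Rbpjl with 56 each. Maml1 and Maml3 are coactivators of the Notch complex, and Nrarp is a Notch-induced inhibitor of the pathway. The highest start folds were 202.5 at Aph1b, a subunit of the gamma-secretase that frees the receptor, 175.6 at Nrarp and 130.6 at Numb, an inhibitor of Notch. All 3 were above the 103.9 of Rbpj. No start summit was found at Hes7, Dtx3, Dll3 and Dtx1, which were named after their values were seen. Within 1 kb of either span boundary, Hes7 had 6 summits and Dll3 had 1, while Dtx3 and Dtx1 had none. Dtx1 had the fewest summits of the 49, with 7 and a highest fold of 5.29.

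**Figure D4:**
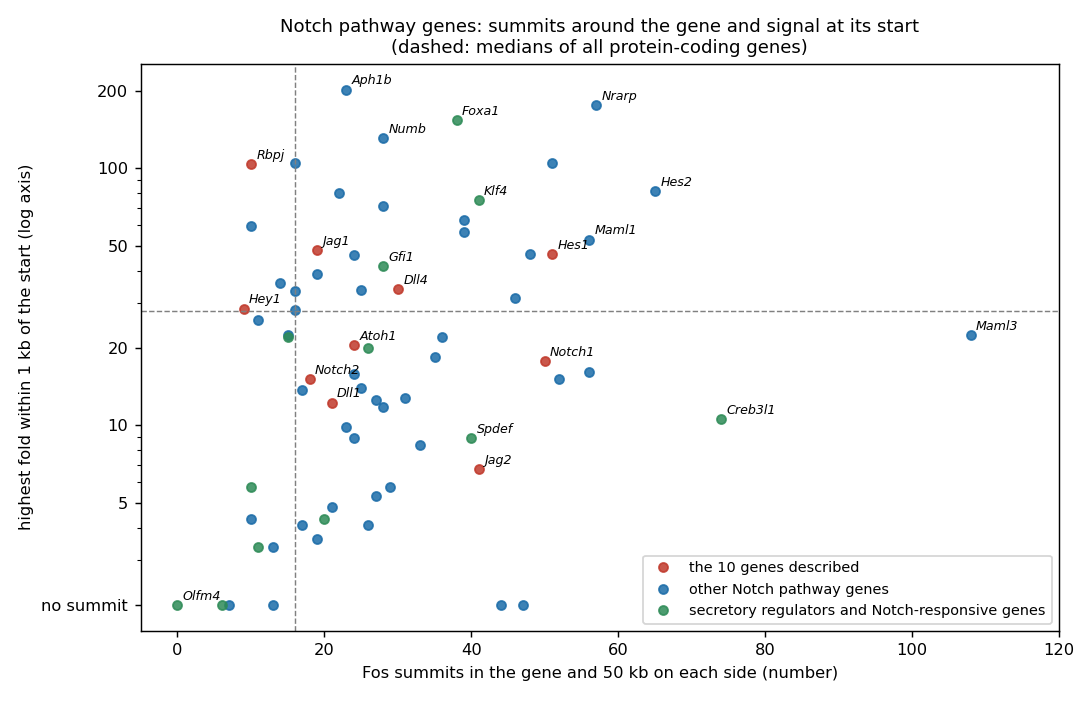
Number of Fos summits in the gene and 50 kb on each side (horizontal axis) against the highest fold within 1 kb of the start or boundary (vertical, log axis; genes with none at the bottom). Points are the 10 genes (red), the other pathway genes (blue, 1 not plotted) and secretory regulators (green), and dashed lines the medians of all protein-coding genes (16 summits; a fold of 27.9 among genes with a start summit). Rbpj is high on the vertical axis with few summits, and Hes1 lies high on both.

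Regulators of the secretory lineage and genes that respond to Notch in the intestine made up a list of 12, of which 10 had a start summit, against 62.0% of all protein-coding genes. The median number of summits was 23, against 16 over all genes. Creb3l1, a factor of goblet cells, had 74, Klf4, which promotes goblet differentiation, 41, and Spdef, which drives goblet and Paneth maturation downstream of Atoh1, 40. Foxa1 had 38 and Gfi1, a repressor that Atoh1 induces, 28. The median start fold of those 10 was 15.3, against 27.9 over all protein-coding genes with a start summit. A strong summit lay in 6 of the 12 windows, against 60.4% of all protein-coding genes. The highest start folds were 153.9 at Foxa1, 75.3 at Klf4 and 41.6 at Gfi1, all above the 20.45 of Atoh1. Spdef had 8.90. The other listed genes with a summit in the window are named here after their values were seen. Sox9 had 26 summits, Gfi1b 20, Foxa2 15, Neurog3 11, Insm1 10 and Neurod1 6. Neurod1 had no start summit. Olfm4, a Notch-responsive stem cell marker of the small intestine, had no summit in its window.

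No library without the Fos antibody was used here, so the part that open chromatin cut by Tn5 without Fos plays in these counts was not tested. The same holds for differences in chromatin between the cell types in the scraped tissue.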

How the data were processed

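Fos was profiled by CUT&Tag in 2 colitis recovered and 2 healthy libraries. Per the submitters' processing notes, Bowtie2 and MACS2 were used with mm10. Versions, settings and which libraries entered the list are not given in the sources used here. Deposited by the authors was 1 peak list, with the fold enrichment as a linear ratio over background, −log10 p-values and −log10 q-values (lowest 1.80), and a score that is 10 times the −log10 q without its decimals. All folds were whole multiples of 0.2405 within 0.05 steps, which gave the pileup, and a Poisson −log10 p recomputed from it matched the deposited one within 0.01 at 100% of 167414 summits.

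Genes, starts and 300-base start sequences came from RefSeq tables of GRCm38.p6, the assembly named mm10. All 10 genes matched the gene table and 8 had start sequences; 17274 of 21631 genes had a start, and boundaries were used for the rest. Positions are 1-based. The tables used give no exons.

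Summits were counted with Python 3.11.15, pandas 2.3.3 and scipy 1.17.1, after the counting and pileup steps were tested on simulated data. No test was run: the list has no values per library, and lists are described by counts beside all genes. Members and lists were chosen with earlier results of these data known. Among further pathway and secretory genes, the 5 with the most summits, the 3 with the highest start fold and every gene without a summit were named. A gene that this rule names is not reported here. Alternatives were stricter q-values, 1 summit per region, leaving out wide regions, other windows and distances, and nearest-gene assignment.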

Additional observations from a re-analysis of the deposited data

How the results depend on the processing

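No paired analysis was possible because the peak list has no column per library, and leaving out a replicate was likewise not run. The total of 273 summits at the 10 genes became 155 with −log10 q of at least 10, 148 with 1 summit per region, 422 with windows of 100 kb and 79 inside the genes alone, each of which counts fewer or more bases or summits by construction. The median per gene, 22.5, became 13.5 with 1 summit per region and 5 inside the genes alone, where the medians of all genes were 10 and 2. The median over the 10 genes of the strongest fold was 63.5, against 67.1 over all protein-coding genes with a summit in the window. For the 10 genes it became 50.9 without regions wider than 3000 bp and with windows of 20 kb. It became 77.9 with windows of 100 kb, and 46.7 where only summits nearest to the gene counted. In the last setting the strongest fold of Notch1 was 45.2 in place of 162.8, that of Jag2 20.0 in place of 87.8, that of Dll1 31.5 in place of 51.96 and that of Hey1 9.14 in place of 28.4. Without regions wider than 3000 bp that of Rbpj was 5.05 in place of 103.9.

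All 10 genes kept a start or boundary summit at −log10 q of at least 5 and 10 and at distances of 500 and 2000 bp. Notch1 and Atoh1 lost it with 1 summit per region, Notch1 and Rbpj without wide regions, and Rbpj at span boundaries. With 1 summit per region or without wide regions, the only such summit left at Hes1 had a fold of 4.33. It lay 391 bp above the gene. The count of other pathway genes with such a summit ran from 38 to 46 of 49. Per gene, 46 summit counts stayed within 1.5 times the reported one under an alternative and 34 did not.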

Other observations

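Several of the Fos summits around these genes lay inside annotated noncoding genes. The share of all summits of the list that do so was not computed, so these counts have no background. In the Notch1 window, 4 summits lay in 0610009E02Rik, with folds of up to 51.2, and 2 in Gm35978, with up to 17.8. At Hes1, 6 summits fell in the lncRNA gene 9030404E10Rik, on its lower side from 30021842 to 30039479, with folds of up to 43.1, and 4 in Gm32998, which begins just above Hes1 at 30067863, with up to 29.35. The strongest summit upstream of Jag2, with a fold of 87.8, lay in Gm26583 together with 7 others, and the summit 1069 bp upstream of Atoh1 lay in Gm35851. At Dll4, 5 summits, among them all 3 at its start, lay in Gm14207, which overlaps that start.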
